A study of Mus musculus with 2 samples.

Results

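The genes described here are 34 of the 32285 genes of a single-cell count matrix, listed by symbol: the heterogeneous nuclear ribonucleoproteins (hnRNPs; 20 Hnrnp genes), the polypyrimidine tract binding proteins Ptbp1, Ptbp2 and Ptbp3, the poly(C)-binding proteins Pcbp1 to Pcbp4, Syncrip and Raly, the FET proteins Ewsr1 and Taf15, and Rbmx, Tra2a and Tra2b. The study compared embryos with and without the splicing factor SRSF2 in the Myf5 lineage, as 1 library of tdT-sorted cells per genotype. The groups are labelled SRSF2f/f/Myf5-Cre/tdT (both Srsf2 alleles floxed) and SRSF2f/w/Myf5-Cre/tdT (1 allele floxed, the control). Both carry Myf5-Cre and the Rosa26 tdT reporter, which marks cells that expressed Cre and their descendants, and the study's methods give embryos at E14, decapitated and eviscerated. How many embryos each library pools is not given in the sources used here.

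The labels and the data did not agree on which library is which. The count matrix holds 15268 barcodes with one suffix and 12498 with the other, and each number matched the cell count in 1 sample's own summary. By that match, Srsf2 stood at 219 CPM (UMIs, unique molecular identifiers, per 1000000 UMIs of the same cells) in the library labelled f/f and at 153 CPM in the library labelled f/w, so it was lower in the library whose title keeps a wild-type allele, with a log2 ratio of -0.52 (95% interval -0.54 to -0.49). Cells of both muscle classes were 16.4% of the library labelled f/f and 0.976% of the library labelled f/w. The study reports a much smaller share of skeletal muscle cells in the mutant than in the control, the opposite of the order by title. The names of the summary files and the headings of the study's quality pages also give the opposite of the titles. By contrast, the study's text retains fewer control than mutant cells, which is the order of library sizes that the titles give. The libraries are therefore named here by their titles, as labelled f/f and labelled f/w. A ratio between them is always labelled f/w over labelled f/f. Read as mutant over control, its sign turns by the titles and stays by the Srsf2 level and the muscle share. Where the deleted part of Srsf2 lies relative to the 3′ tags is not given in the sources used here.

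The hnRNPs coat nascent transcripts and bind pre-mRNA at defined short motifs, and many of them act against the SR proteins, the family of SRSF2, in the choice of exons. Members of several subfamilies replace each other between tissues: Ptbp1 is the form of most cells, and it is known to be replaced by Ptbp2 (nPTB) when neurons form and to fall in muscle differentiation. TRA2A and TRA2B are SR-like proteins that favour exon inclusion.

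All 34 symbols had an identifier in the GENCODE vM21 annotation (GRCm38), on 17 chromosomes, and all are protein-coding. In 4 of them, a protein-coding gene overlaps on the same strand (March2 with Hnrnpm, AC129217.1 with Hnrnpul2, Gm20537 with Syncrip and a with Raly). Reads assigned to both genes of such a pair were not counted, so the counts of these members may be too low. Counting genes of any type, 10 members had a same-strand overlap, among them Ptbp1 and Ptbp2. The part of the further overlaps in the counts was not tested. Close paralogues such as Hnrnph1 and Hnrnph2 and processed copies of these genes can also take or lose reads, and their values are uncertain to that extent.

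The promoters of Ptbp1 and Ptbp2 are shown because these paralogues had opposed levels across the cell classes below. Both windows reach from 250 bases before to 50 after the RefSeq start on build GRCm38.p6. Capitals mark the E-box pattern CANNTG, searched as 1 pattern that reads the same on both strands, and the windows are Ptbp1 on the plus strand at chr10:79854182-79854481 and Ptbp2 on the minus strand at chr3:119783339-119783638.
Ptbp1: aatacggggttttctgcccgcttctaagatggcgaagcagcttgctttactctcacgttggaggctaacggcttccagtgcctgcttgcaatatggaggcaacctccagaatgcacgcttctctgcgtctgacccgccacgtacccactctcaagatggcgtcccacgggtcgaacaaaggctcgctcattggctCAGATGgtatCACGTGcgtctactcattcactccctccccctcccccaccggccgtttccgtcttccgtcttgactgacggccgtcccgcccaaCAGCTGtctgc
Ptbp2: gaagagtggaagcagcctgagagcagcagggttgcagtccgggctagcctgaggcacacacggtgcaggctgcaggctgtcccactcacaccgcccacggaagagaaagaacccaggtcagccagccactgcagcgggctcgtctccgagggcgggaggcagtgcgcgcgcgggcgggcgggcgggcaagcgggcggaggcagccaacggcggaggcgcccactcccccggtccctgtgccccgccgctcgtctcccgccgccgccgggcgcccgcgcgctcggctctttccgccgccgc
The Ptbp1 window held 3 E-box patterns and that of Ptbp2 held 0. The Ptbp1 window spans the start of the gene in GENCODE (79854427). By contrast, the Ptbp2 window lies inside the GENCODE gene, downstream of its start at 119784466, so the 2 windows are not placed alike. Of all 32851 windows, 72.3% held at least 1, and of the 39 windows of the 29 members in the table, 46.2%. The member windows had a median of 29 CG pairs, against 7 over all windows. Ptbp2 had 36 CG pairs, more than 93.8% of all windows, and Ptbp1 had 22, more than 76.9%. A match is a stretch of letters and not evidence of binding.

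Cells were put in classes by UMIs of listed marker genes. Each class had between 1 and 5 of its own markers among its 10 leading genes (Pax7, Myf5 and Myod1 in progenitor-like muscle, Myog and Mymx in myocyte-like muscle). As these markers also selected the cells, their place there is no separate check of the class names. In the leukocyte-like class the leading genes include those of mast cells (Cpa3, Cma1) and of lymphoid cells (Cd3g, Trbc2), so this class is mixed. The part of this mix in its levels and ratios was not tested. Kept cells were 12523 in the library labelled f/f and 10345 in the library labelled f/w, with a median of 10751 and 9480 UMIs per cell and 151555303 and 122938843 UMIs in all. Of the barcode sequences, 74 occurred in both libraries. Of the kept cells, 21.7% and 23.5% passed the limits of more than 1 class and were left out of the classes. As each group was 1 library, no test between them was possible. Intervals cover counting error only, and a gene is counted as higher or lower by size of the fold, a log2 ratio of at least 0.32 in size between libraries and a fold of at least 1.5 between cell states, among genes with at least 200 UMIs over both sides. Levels below are for classes of at least 50 cells, with the erythroid-like class described apart, and for the 43 myocyte-like cells of the library labelled f/w. Folds between the highest and lowest class, and counts of such classes, use only classes of at least 50 cells. In the library labelled f/w these leave out the myocyte-like and osteoblast-like classes (43 and 32 cells).

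The members were detected in every one of these classes, and their median fold across them was smaller than that of all genes. The median fold between the highest and lowest class was 1.87 over 11 classes in the library labelled f/f and 2.15 over 9 classes in the library labelled f/w. Over all 8496 genes with at least 1000 UMIs in each library it was 3.97 and 3.93. Of 34 members, 14 spanned at least 2-fold and 7 at least 4-fold in the library labelled f/f, where 87.4% and 49.7% of all these genes did. The counts were 18 and 7 in the library labelled f/w, where 88.6% and 49% did. The members and these 8496 genes were not matched for level. Over all kept cells the members had a median of 175 and 184 CPM in the libraries labelled f/f and f/w. Thinning the cells raised the members' own median fold, as given at the end.

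Neuron-like cells were the highest class for 13 and 15 members in the libraries labelled f/f and f/w, where they were for 25.6% and 28.3% of all these genes. Progenitor-like muscle was highest for 10 and 11 (8.22% and 13.8% of all genes), and leukocyte-like cells were lowest for 14 and 19 (19.4% and 26.5%). All counts in this paragraph are on total UMIs. With globin, ribosomal protein and mitochondrial genes left out of the total, some neuron-like maxima of the library labelled f/f moved. Hnrnpa0 was then at 1100 CPM in neuron-like and 1247 in keratinocyte-like cells. Hnrnpa2b1 was at 1026 in neuron-like and 1123 in myocyte-like cells. The counts are not given on that scale. The highest class was the same in both libraries for 21 members and the lowest class for 20, over unlike sets of 11 and 9 classes. The matching shares over all genes are not given, so these 2 counts describe the members only. In the library labelled f/w, some members were higher or lower in the myocyte-like class, left out there, than in any class counted. Among these, Pcbp2 and Pcbp4 were higher and Ptbp1 and Ptbp3 lower.

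**Figure D1:**
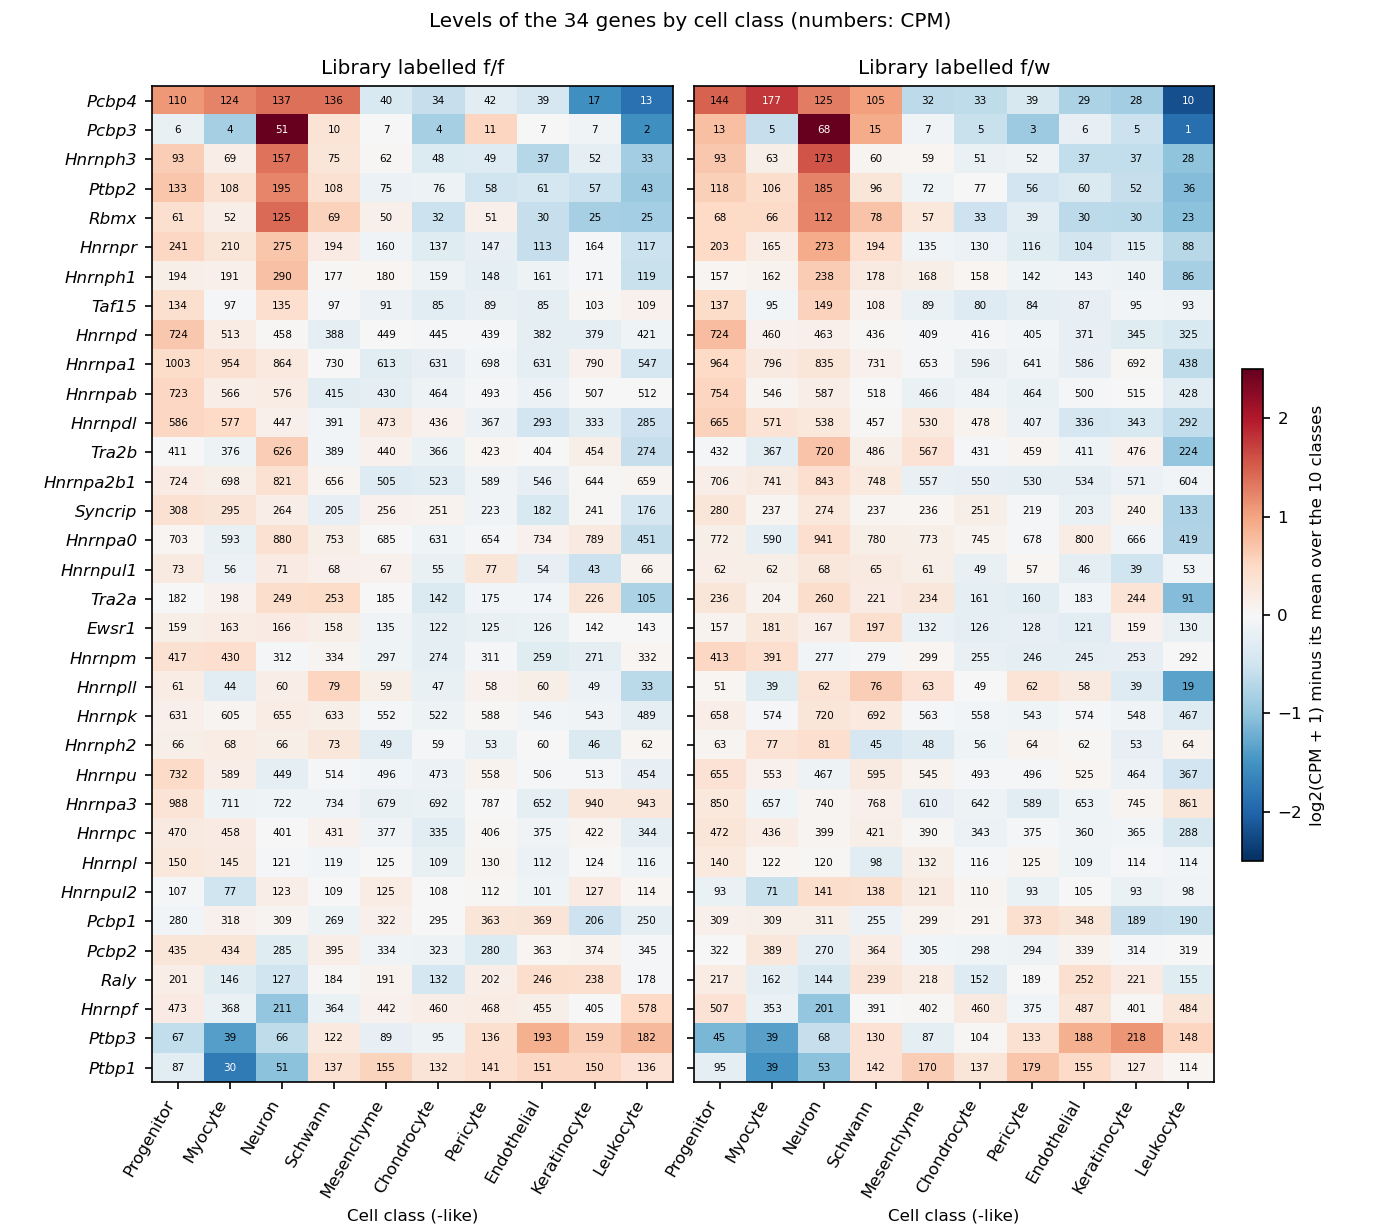
CPM of the 34 members (rows) in 10 cell classes (columns) of each library, printed in the cells, with colour for log2(CPM + 1) minus the gene's mean over the 10 classes. The rows at the top (Pcbp4, Pcbp3, Hnrnph3, Ptbp2, Rbmx) are red in neuron-like cells, and Ptbp1 and Ptbp3 at the bottom are blue in both muscle classes and in neuron-like cells. The myocyte-like class of the library labelled f/w has 43 cells.

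The Ptbp genes differed in where they were low. Ptbp1, a repressor of many tissue-specific exons, was at 30.2 CPM (27.0 to 33.7) in myocyte-like cells, 51.4 (44.1 to 59.6) in neuron-like cells and 87.2 (83.1 to 91.5) in progenitor-like muscle of the library labelled f/f. In its other classes it lay between 125 CPM (osteoblast-like) and 155 CPM (mesenchyme-like). In the library labelled f/w the same 3 classes were lowest, with 39.2 CPM (25.6 to 57.5), 53.4 (48.0 to 59.2) and 94.7 (75.9 to 117). All 3 intervals lie below those of mesenchyme-, chondrocyte- and endothelial-like cells of the same library, whereas the order among these and the other classes rests on overlapping intervals in several places.

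Ptbp2 ran the other way. It was highest in neuron-like cells, at 195 CPM (180 to 210) and 185 CPM (175 to 196) in the libraries labelled f/f and f/w, and next in progenitor-like muscle, at 133 (128 to 139) and 118 (97.3 to 143). Leukocyte-like cells were lowest, at 43.0 and 36.0 CPM. Myocyte-like and Schwann-like cells, at 108 CPM each in the library labelled f/f, could not be told apart. Counted as UMIs of Ptbp2 over UMIs of Ptbp1, the log2 balance was 1.92 (1.68 to 2.17) in neuron-like, 1.83 (1.65 to 2.01) in myocyte-like and 0.61 (0.53 to 0.70) in progenitor-like cells of the library labelled f/f. It was below 0 in the other classes, down to -1.66 in leukocyte-like cells, and only in Schwann-like cells (-0.34, -0.76 to 0.07) did the interval include 0. In the library labelled f/w it was 1.79, 1.43 and 0.32, and the last interval (-0.10 to 0.74) includes 0. Each gene has its own 3′ capture, so the balance is read between classes and not as an absolute ratio of transcripts.

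**Figure D2:**
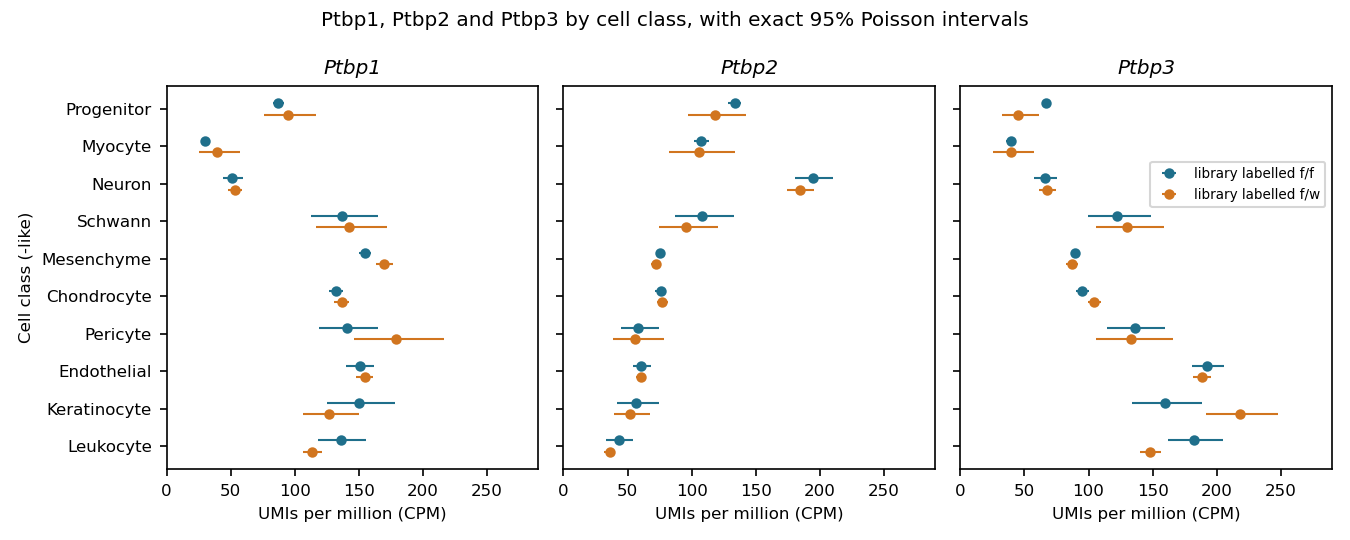
Levels of Ptbp1, Ptbp2 and Ptbp3 (CPM, horizontal axis) in 10 cell classes (vertical axis), 1 point per library with its exact 95% Poisson interval. Ptbp1 is lowest in the myocyte class and Ptbp2 highest in the neuron class of both libraries. In the library labelled f/w the Ptbp1 value rests on 26 UMIs, and its interval overlaps that of the neuron class. Ptbp3 in keratinocyte-like cells stands at 159 and 218 CPM in the libraries labelled f/f and f/w.

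Ptbp3, the third paralogue, also known as ROD1, was high in classes where Ptbp2 was low. Endothelial-like cells had 193 and 188 CPM, leukocyte-like cells 182 and 148 and keratinocyte-like cells 159 and 218, in the libraries labelled f/f and f/w. Myocyte-like cells had 39.3 and 39.2 CPM.

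Among the poly(C)-binding proteins, Pcbp1 and Pcbp2 were broad and Pcbp3 and Pcbp4 restricted. Pcbp3 reached 50.5 CPM (43.3 to 58.6) and 67.9 CPM (61.9 to 74.5) in neuron-like cells of the libraries labelled f/f and f/w. Outside them it stayed between 1.93 and 11.3 CPM in the library labelled f/f and between 1.21 and 14.6 CPM in the library labelled f/w, over classes of at least 50 cells. Pcbp4 was high in a group of 4 classes, namely neuron-like (137 and 125 CPM), Schwann-like (136 and 105), progenitor-like (110.4 and 144) and myocyte-like (124 and 177). It was between 13.5 and 42.7 CPM in all other classes of the library labelled f/f. Over Pcbp2, the log2 UMI balance of Pcbp4 went from -4.68 in leukocyte-like to -1.06 in neuron-like cells of the library labelled f/f, and from -4.94 to -1.11 in the library labelled f/w.

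Several further members had their highest CPM in neuron-like cells. Hnrnph3 stood at 157 and 173 CPM there, against 93.4 and 92.5 CPM in progenitor-like muscle as the next class. Rbmx, an X-linked hnRNP that binds with TRA2B, stood at 125 and 112 CPM, and Tra2b itself at 626 and 720. Hnrnpf, which binds G-rich sequence like Hnrnph1, had its minimum in neuron-like cells at 211 and 201 CPM, against 578 and 484 CPM in leukocyte-like cells. Hnrnph1 was highest in the neuron-like class, at 289.8 and 238 CPM. The log2 UMI balance of Hnrnph2 over Hnrnph1 went from -2.13 in neuron-like to -0.93 in leukocyte-like cells of the library labelled f/f. In the library labelled f/w it went from -1.98 in Schwann-like to -0.41 in leukocyte-like cells, with -1.55 in neuron-like cells.

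Progenitor-like muscle was the highest class for Hnrnpa1 and Hnrnpd. Hnrnpa1, an antagonist of SR proteins at 5′ splice sites, had 1003 and 964 CPM there, and Hnrnpd, which binds AU-rich elements, had 724 CPM in both libraries. The steadiest members were Hnrnpk, with a fold of 1.34 between highest and lowest class, and Ewsr1, with 1.36, in the library labelled f/f. In the library labelled f/w, over 9 classes without the myocyte-like class, they were Pcbp2, with 1.35, and Hnrnpl, with 1.42. In the myocyte-like class left out there, Pcbp2 was above its highest class counted. Hnrnpll, a regulator of Cd45 splicing in lymphocytes, was lowest in the leukocyte-like class, at 33.4 and 18.8 CPM, and its balance over Hnrnpl was lowest there too (-1.79 and -2.60 on the log2 scale). The balance of Hnrnpa2b1 over Hnrnpa1 was above 0 in leukocyte-like cells (0.27 and 0.46) and lay between -0.47 and 0.03 in every other class. That of Tra2a over Tra2b lay between -1.52 and -0.62.

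Erythroid-like cells held few UMIs of any member, with a median of 25.8 CPM over members in the library labelled f/f and 13.0 CPM in the library labelled f/w, and at most 98.3 and 46.7 CPM. Much of the total in these cells is globin. With globin, ribosomal protein and mitochondrial genes left out of the total, the median over members was 216 and 176 CPM, against 250.1 and 258 CPM over all kept cells on the same scale. How much of these UMIs was free RNA was not tested. The share of haemoglobin UMIs over all kept cells was 0.584% and 0.961%.

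Within the 20 class levels without the erythroid-like class, the profiles of some members resembled each other, given as a description with no test. The points share their 2 libraries and the depth of each class. Over log2(CPM + 1), Ptbp2 was most like Matr3 (Pearson r 0.97), Hnrnph3 (0.95) and Hnrnpr (0.93) of 8496 genes, and Hnrnph3 most like Matr3 (0.97). Hnrnpa1 and Hnrnpc were each other's closest gene (0.92). Ptbp1 was closest to Zfp36l2 (0.94).

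Muscle differentiation was read as myocyte-like over progenitor-like cells within a library, which does not rest on the genotype labels. The members were mostly a little lower in myocyte-like cells, and Ptbp1 had the lowest ratio. In the library labelled f/f, with 1292 progenitor-like and 765 myocyte-like cells, 33 members were compared with a median log2 ratio of -0.20, against -0.18 over all 8201 genes compared. Of the members 0 were higher and 2 lower by 1.5-fold, where 9.94% of all genes were higher and 24.3% lower, a smaller share of members than of all genes.

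Ptbp1 was at 87.2 CPM in progenitor-like and 30.2 CPM in myocyte-like cells, a log2 ratio of -1.53 (-1.70 to -1.36), and Ptbp3 at 67.1 and 39.3 CPM, a ratio of -0.77 (-0.93 to -0.61). Next came Hnrnpd (-0.50), Hnrnpa3 (-0.48) and Hnrnpul2 (-0.47), all short of the fold. At the other end Pcbp1 (0.19), Pcbp4 (0.16), Tra2a (0.12), Hnrnpm and Hnrnph2 (both 0.04) had the highest ratios. Ptbp2 was at 133 and 108 CPM, so it was the lower Ptbp1 that raised the balance of Ptbp2 over Ptbp1 in myocyte-like cells.

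In the library labelled f/w the classes hold 58 and 43 cells, and 23 members reached 200 UMIs. Their median was -0.22, against -0.09 over all genes, with 0 higher and 1 lower, where 7.59% and 14.9% of 1080 genes were higher and lower. The 1 member was Hnrnpd, at 724 and 460.4 CPM, with a log2 ratio of -0.65 (-0.85 to -0.46). Hnrnpf (-0.52), Hnrnpab (-0.46), Raly (-0.43) and Hnrnpa0 (-0.39) followed, and Pcbp4 (0.29), Pcbp2 (0.28), Ewsr1 (0.21), Hnrnpa2b1 (0.07) and Hnrnph1 (0.04) stood at the top. Ptbp1 was at 94.7 and 39.2 CPM on 88 and 26 UMIs, below the minimum of 200.

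**Figure D3:**
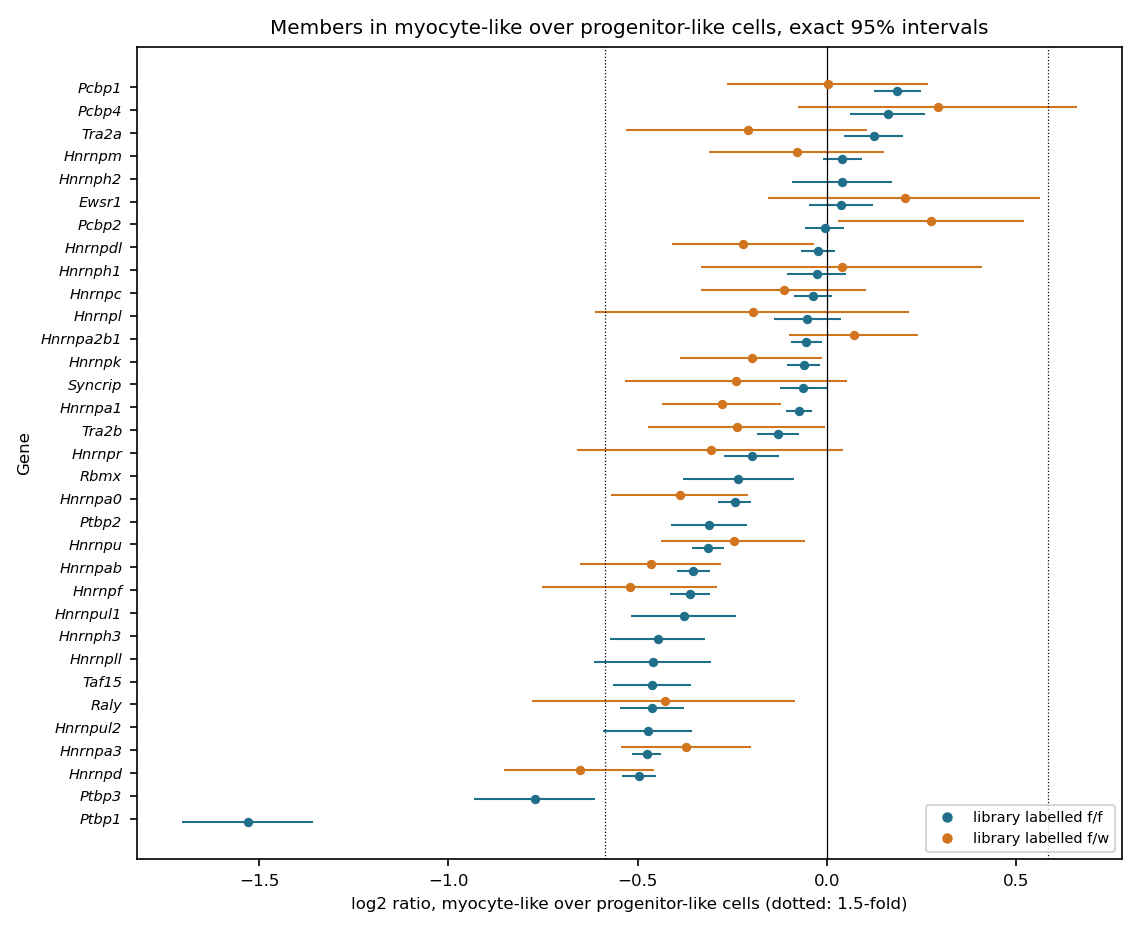
log2 ratio of myocyte-like over progenitor-like cells (horizontal axis) for the members with at least 200 UMIs over both classes (vertical axis), 1 point per library with its exact 95% interval, dotted lines at 1.5-fold. Ptbp1 at -1.53 and Ptbp3 at -0.77 stand apart to the left in the library labelled f/f, and the other points lie between -0.65 and 0.29.

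Of the other 31 genes of RNA processing on the list, 3 were higher and 1 lower in the library labelled f/f and 2 of 21 higher and 5 lower in the library labelled f/w. Over all genes compared, 9.94% were higher and 24.3% lower in the library labelled f/f, and 7.59% and 14.9% in the library labelled f/w. Qk (0.77 and 0.64) and Celf1 (0.61 and 0.75), both regulators of muscle exons, were higher in both libraries, and the SR protein gene Srsf9 was lower in both (-1.28 and -1.48).

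Cell cycle state differs between the muscle classes, and the comparison was repeated on cells split by it. In the library labelled f/f, 934 progenitor-like cells of at least 5000 UMIs were cycling (at least 5 UMIs of Mki67, Top2a, Cdk1, Ccnb1, Birc5 and Ube2c) and 130 were not (at most 1), against 260 and 308 myocyte-like cells. With non-cycling cells of both classes, 6 of 32 members were lower (15.9% of all genes) and the median was -0.26. Ptbp1 was then at -1.69 (-2.14 to -1.25) on under 200 UMIs. Non-cycling myocyte-like over cycling progenitor-like cells gave 14 of 33 lower (33.2% of all genes) with a median of -0.53, and in the library labelled f/w 9 of 18 (26% of all genes) on 16 and 44 cells. These splits were added after the data had been seen. They also rest on fewer cells and genes, with 3094 genes compared in non-cycling cells of both classes against 8201 without a split. The part of cell cycle state in the changes was not tested.

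Most members were higher in cycling than in non-cycling cells of the same class. The cycling call used UMIs not scaled to the depth of a cell. Cycling and non-cycling cells were not matched for depth beyond the minimum of 5000 UMIs. The median log2 ratio was above 0 in all 10 pairs of class and library with at least 50 cells on each side, from 0.16 in endothelial-like cells of the library labelled f/w to 0.56 in myocyte-like cells of the library labelled f/f. In neuron-like cells of the library labelled f/w it was 0.29, and 0.036 when cells of more than 1 class were kept. Over all genes compared, the median in these pairs lay between -0.08 and 0.09. Of 29 members with enough UMIs in all pairs, 16 were higher in all 10, where 21.4% of the 2025 genes so covered were.

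Taf15 had the highest ratio in myocyte-like cells, where it was at 62.0 CPM in non-cycling and 133 CPM in cycling cells (log2 1.11), and was higher by 0.41 or more in every pair. Hnrnpd, at 359 and 710.1 CPM in the same cells, was higher by 0.38 to 0.98. Hnrnpa2b1 (0.39 to 0.60), Hnrnpab (0.35 to 0.84) and Rbmx (0.29 to 0.87 in 8 pairs) were above 0 wherever compared. Ptbp2 differed, with a median over pairs of -0.23 and a range from -0.44 to 0.50, and Hnrnpc (median 0.02) and Tra2a (0.03) had medians near 0.

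Few of these differences passed 1.5-fold outside myocyte-like, leukocyte-like and neuron-like cells. Of 33 members in myocyte-like cells of the library labelled f/f, 13 passed, where 15.8% of all genes did. Of 29 members in leukocyte-like cells of the library labelled f/w, 9 passed (9.07% of all genes), and in neuron-like cells 6 of 34 (9.69%). In mesenchyme-like cells it was 0 of 33 in the library labelled f/f (7.82%) and 4 of 33 in the library labelled f/w (7.96%), and in chondrocyte-like cells 2 of 33 (8.38%) and 3 of 33 (6.68%). Endothelial-like cells had 1 of 30 (7.64%) and 1 of 33 (6.95%), in both libraries Hnrnpul1, and progenitor-like muscle of the library labelled f/f had 0 of 33 (10.6%).

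**Figure D4:**
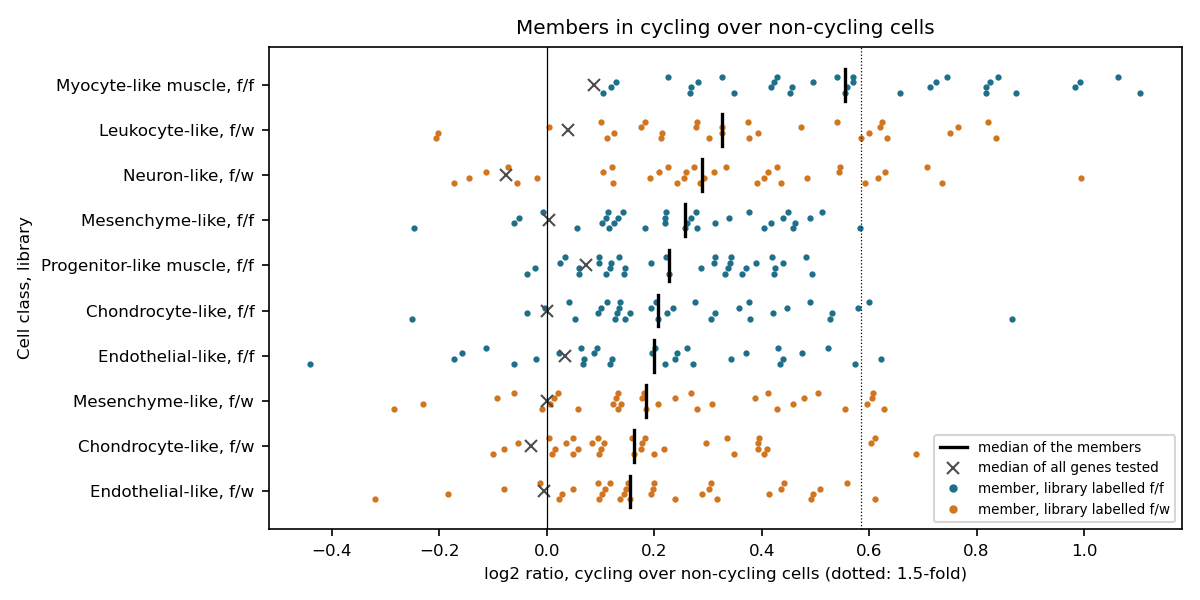
log2 ratio of cycling over non-cycling cells (horizontal axis) for each member with at least 200 UMIs (points) in 10 pairs of cell class and library (vertical axis), with the median of the members as a bar and that of all genes compared as a cross. Every bar lies to the right of its cross, between 0.16 and 0.56.

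Between the libraries, the members differed little over all kept cells. Their median log2 ratio was -0.10, against 0.02 over all 14477 genes compared. Of 34 members 2 were higher and 3 lower by 0.32 or more, where 22.8% of all genes were higher and 14.8% lower. Pcbp3 was at 12.3 CPM in the library labelled f/w and 7.87 in the library labelled f/f (log2 0.64, 0.53 to 0.75), and Ptbp3 at 118 and 90.2 CPM (0.38). Pcbp4 was at 43.1 and 61.9 CPM (-0.52, -0.57 to -0.47), Hnrnpr at 131 and 169 (-0.36) and Hnrnpd at 391 and 492 (-0.33). Next were Ptbp1 (0.18), Tra2b (0.16) and Hnrnpa0 (0.13) above 0 and Hnrnpul1 and Hnrnpm (both -0.26) below it.

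The libraries also differed in their makeup. Without the muscle cells, Pcbp4 was at -0.22, Hnrnpd at -0.22, Ptbp3 at 0.27 and Pcbp3 at 0.54. Neuron-like cells, the main site of Pcbp3, were 3.83% of the library labelled f/f and 8.49% of the library labelled f/w, and endothelial-like cells, high in Ptbp3, 2.69% and 8.10%. The part of these shares in the ratios was not tested. Within neuron-like cells Pcbp3 was at 0.43 (0.17 to 0.69), and within endothelial-like cells Ptbp3 was at 193 and 188 CPM.

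Within cell classes, the mean ratios of the members were close to 0, while that of Srsf2 was lower. The equal-weight mean of the log2 ratio over 9 classes (all with at least 50 cells in both libraries, the erythroid-like class left out, a choice made after the data had been seen) was between -0.21 (Hnrnpr, -0.30 to -0.13) and 0.16 (Hnrnpdl, 0.10 to 0.21) for the 34 members, with a median of -0.05, against -0.06 over all genes. Of the members 0 were higher and 0 lower by 0.32 or more, where 4.51% of 9581 genes were higher and 12.9% lower. By the same mean Srsf2 was at -0.47 (-0.55 to -0.39), with keratinocyte-like cells as the class where it was not lower (0.03, -0.28 to 0.34). Over the 9 classes Hnrnpr lay between -0.52 and -0.00026, with an interval that excludes 0 in 4. Hnrnpdl lay between 0.03 and 0.27, with 6 such intervals. Both genes were named as the ends of the mean over these same classes of 2 libraries, so these values add no separate evidence. Hnrnpul1 (-0.19), Hnrnph1 (-0.19), Pcbp2 and Hnrnpa3 (both -0.14) were next at the low end and Tra2b (0.12), Raly (0.08), Tra2a (0.07) and Hnrnpa0 (0.06) at the high end.

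With the erythroid-like class included, the median was -0.16 and 2 of 32 members were lower and 0 higher (16% and 2.67% of 4873 genes), namely Hnrnpm (-0.44) and Hnrnpd (-0.33). In erythroid-like cells Hnrnpm was at 48.3 and 5.49 CPM in the libraries labelled f/f and f/w, and no member reached 200 UMIs there, so this count rested on a class with few UMIs.

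**Figure D5:**
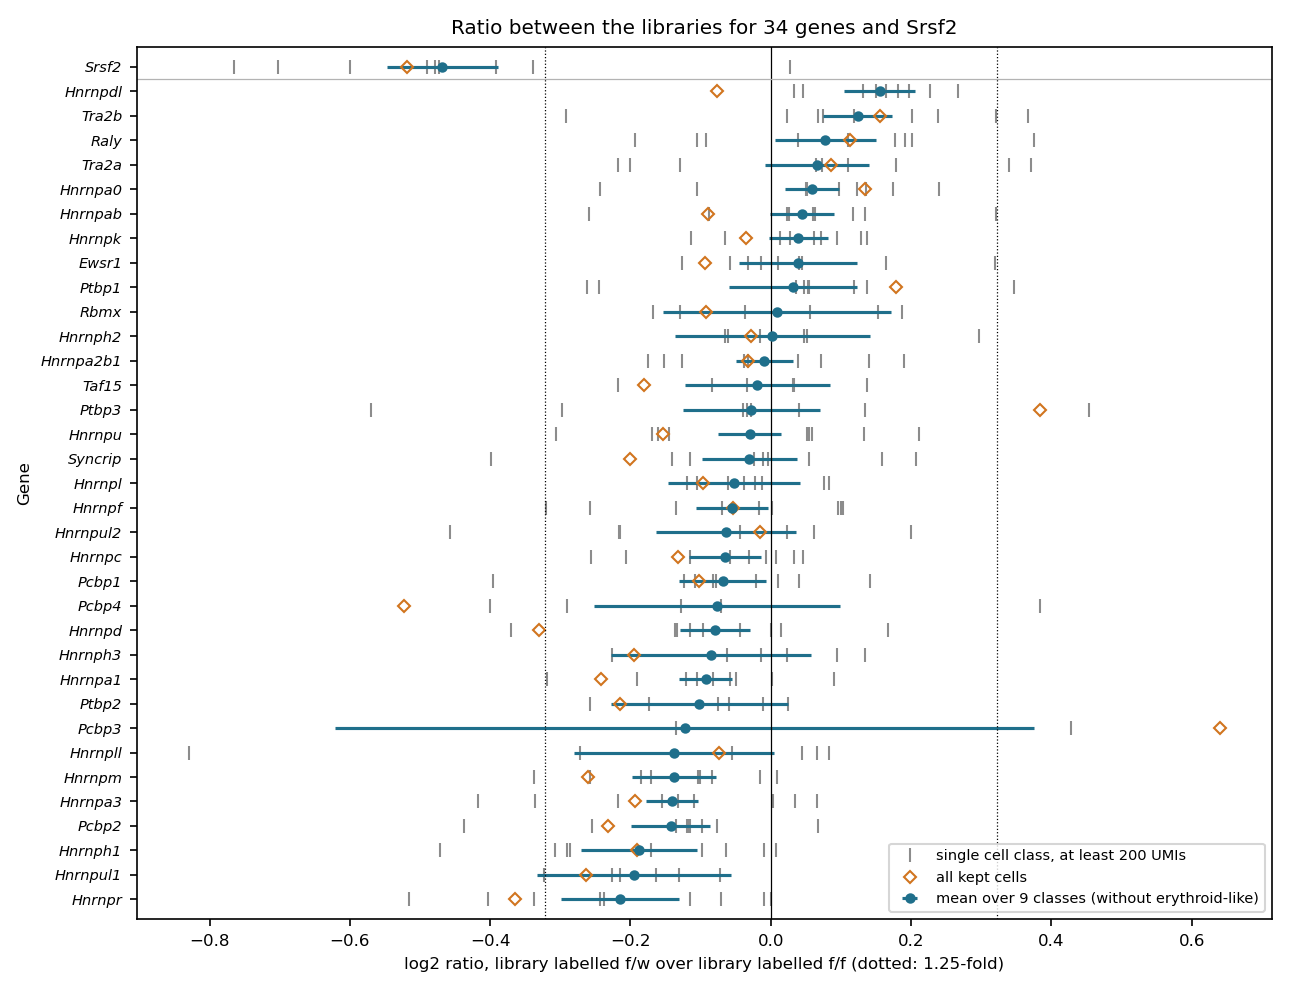
log2 ratio of the library labelled f/w over the library labelled f/f (horizontal axis) for the 34 members and Srsf2 (vertical axis), as the mean over 9 cell classes with its 95% counting interval (filled points), over all kept cells (open diamonds) and in single classes with at least 200 UMIs (ticks). The filled points of the members lie between -0.21 and 0.16, inside the dotted lines, and that of Srsf2 lies at -0.47.

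Single classes gave a few larger differences. In mesenchyme-like cells (2930 in the library labelled f/f and 1537 in the library labelled f/w), both Tra2 genes were higher in the library labelled f/w, Tra2b at 567 against 439.9 CPM (log2 0.37, 0.33 to 0.40) and Tra2a at 234 against 185 CPM (0.34, 0.28 to 0.40). They were the 2 of 34 members higher by 0.32 or more there, where 6.67% of 10098 genes were, so the share of members was near that of all genes. Srsf2 was at 144 CPM in these cells of the library labelled f/w and at 200.3 CPM in those of the library labelled f/f. A link between Srsf2 and the Tra2 genes was not tested. The study reports that its mesenchymal cells overlapped only in part between the samples and differed in their subcluster shares. The part of this mix in the ratios was not tested. In the other classes with at least 200 UMIs Tra2b was between -0.29 (leukocyte-like) and 0.32 (Schwann-like).

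In progenitor-like muscle, with 58 cells in the library labelled f/w, Pcbp4 (0.38, 0.12 to 0.64) and Tra2a (0.37, 0.17 to 0.57) were higher and Ptbp3 (-0.57, -1.05 to -0.13) and Pcbp2 (-0.44, -0.61 to -0.27) lower, 2 and 2 of 33 members where 13% and 22.3% of 7186 genes were. The value of Ptbp3 rests on 42 UMIs. The next members were Hnrnpdl (0.18), Rbmx (0.15) and Pcbp1 (0.14) above 0 and Hnrnph1 (-0.31), Hnrnpll (-0.27) and Hnrnpr (-0.24) below it. In leukocyte-like cells (109 and 555 cells) 7 of 32 members were lower, against 25.1% of 4965 genes, and Hnrnpll was the lowest, at 33.4 and 18.8 CPM (-0.83, -1.29 to -0.35). In neuron-like cells Hnrnph1 was at 289.8 and 238 CPM (-0.29, -0.40 to -0.17) and Pcbp3 at 50.5 and 67.9 CPM (0.43, 0.17 to 0.69). In chondrocyte-like cells (1442 and 1679) 0 of 33 members were higher and 0 lower by 0.32 or more, where 8.97% and 10.4% of 8630 genes were, and the members lay between -0.16 (Hnrnpul1) and 0.24 (Hnrnpa0).

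Of the other 31 genes of RNA processing, 1 was higher and 2 lower over all kept cells, where 22.8% and 14.8% of all genes were. Cirbp, a cold-inducible RNA-binding protein, was at 0.33, and the SR protein genes Srsf4 and Srsf1 were at -0.46 and -0.43. The stress list (Fos, Jun, Hspa1a and others) was at 4705 and 6447 CPM in the libraries labelled f/f and f/w, and its part in the ratios between libraries was not tested.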

How the data were processed

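Per the file headers and the study's methods, the authors mapped reads of 10x 3′ libraries to mm10 (GRCm38) with Cell Ranger (5.0.0 in the matrix header, 3.1.0 with STAR and Seurat 3.1.1 in the submitters' processing notes) and deposited raw counts of UMIs for 32285 genes and 27766 barcodes, aggregated after down-sampling of reads. Sequencing gave 571426356 reads (saturation 39.5%) in the library labelled f/f and 575393483 (45.9%) in the library labelled f/w.

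Cells within 2 SD of the log10 UMIs and genes of their library and with at most 10% mitochondrial UMIs were kept. Classes needed a minimum of summed marker UMIs from at least 2 markers. Cells passing the limits of more than 1 class were left out as possible doublets or free RNA, and no doublet caller was run. UMIs were summed per class and library. Levels have exact Poisson and ratios exact binomial 95% intervals, which cover counting error only. One UMI stands for 1 transcript end, so levels were not divided by length, and reads assigned to several genes were not counted. The scripts were tested on simulated data.

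The members and lists were chosen with earlier results of these data known. Named by rule were Srsf2, the 5 highest and 5 lowest members of the comparisons described, pairs of related members, up to 3 most alike genes and up to 4 other genes of RNA processing. The analysis used Python 3.11.15, NumPy 2.4.6, SciPy 1.17.1, pandas 2.3.3 and matplotlib 3.10.9. The results were recomputed under 9 other settings and under 7 more chosen after seeing the data. Of the gene identifiers, 99.6% were in GENCODE vM21.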

Additional observations from a re-analysis of the deposited data

Results flagged for a closer look

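Ptbp3 and Pcbp4 differed in opposite directions between the libraries in different cell classes, and the difference between classes was not tested, as each group was 1 library. The log2 ratio of the library labelled f/w over the library labelled f/f was 0.45 for Ptbp3 in keratinocyte-like cells and -0.57 in progenitor-like muscle. For Pcbp4 it was 0.38 in progenitor-like muscle and -0.40 in endothelial-like cells. The progenitor-like values rest on 58 cells of the library labelled f/w, with 42 UMIs of Ptbp3 and 134 of Pcbp4.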

How the results depend on the processing

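No paired analysis was possible because each group was 1 library and no result came from a test. Of the alternatives for medians and counts over members, 265 stayed close to the value reported and 27 moved. Of those for single genes, 4516 stayed close, 616 moved beyond their counting interval and 2 reversed. With cells thinned to 2000 UMIs the median fold between classes was 2.15 and 2.67 in the libraries labelled f/f and f/w, the median ratio between libraries was -0.066 over all kept cells and -0.45 in pericyte-like cells, and 1 member was lower over all kept cells and 0 in the mean over classes. Thinning also turned the ratios of Hnrnpr in pericyte-like cells (0.60) and Hnrnpul1 in leukocyte-like cells (0.21), both with intervals that include 0. Leaving globin, ribosomal protein and mitochondrial genes out of the total UMIs gave a median of -0.12 over all kept cells and 1 member lower in the mean over classes. That count was 4 with cells of more than 1 class kept, 1 with no limits on UMIs and genes, and 0 both without the erythroid-like class and with the larger fold. Over all kept cells, leaving out both muscle classes gave a median of -0.059 with 1 member higher and 0 lower, and the larger fold gave 1 higher and 0 lower. For myocyte-like over progenitor-like cells the larger fold left 1 member lower in the library labelled f/f and 0 in the library labelled f/w, while at least 50 UMIs and doubled marker limits each gave 2 in the latter. Non-cycling cells of both muscle classes gave 6 lower in the library labelled f/f. Non-cycling myocyte-like against cycling progenitor-like cells gave 14 and 9 lower, with medians of -0.53 and -0.58. With cells of more than 1 class kept, the cycling median in neuron-like cells of the library labelled f/w was 0.036. The causes of these changes were not tested. Except where stated above, the share over all genes is not given for these settings. The counts then describe the members only.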
